A study of Mus musculus with 3 samples.

Results

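Spliceosome proteins and RNA splicing factors were followed through 3 arrays of C2C12, an established line of mouse myoblasts, the precursors that fuse into muscle fibres. The genes were taken by name: every probe set whose single gene symbol began with Snrp, Snrnp, Srsf, Hnrnp, Sf3a, Sf3b or Lsm and went on with a letter or digit, or began with Prpf. The rule found 158 probe sets of 69 genes, among 20380 probe sets of 12393 genes with 1 symbol each. The groups were cells given diacylglycerol kinase zeta (DGKzeta), which phosphorylates the lipid messenger diacylglycerol, cells given the fluorescent protein EGFP as a transfection control, and untreated cells. All of them carried the time label 12 h, had been plated for 18 h before the transfections, which used FuGene, and were grown in medium with fetal calf serum. Each group had 1 array of total RNA, so no difference between groups has a replicate check, no test across arrays could be run and no p-values are given. The labels give no share of cells that took up a construct, and the groups represent 1 cell line.

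Introns are removed from pre-mRNA by the spliceosome, which is built anew on each intron from small nuclear ribonucleoproteins (snRNPs). U1 binds the 5′ splice site, U2 binds the branch point with the help of the SF3A and SF3B complexes, and the U4/U6.U5 tri-snRNP then joins before the particle is rearranged for catalysis. A ring of Sm proteins surrounds the U1, U2, U4 and U5 RNAs and a ring of Lsm proteins the end of U6, while SR proteins and hnRNPs bind the pre-mRNA and mostly favour or oppose the use of nearby splice sites. Myoblasts are known for large programmes of alternative splicing as they differentiate.

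A probe set is a group of short probes whose brightness is combined by the MAS5 algorithm into 1 signal. A probe set, and the gene it stands for, counted as measured on an array from a signal of 107, the midpoint of all values pooled, and lower values were raised to that floor before a ratio was taken. A gene was represented by its brightest probe set, the one with the highest geometric mean over the 3 arrays, and was called apart when the ratio of signals was 2-fold or more, which is 1 on the log2 scale. Of the 69 genes, 66 were measured on all 3 arrays. The remaining 3 stayed under the floor on every array: Snrpn, which encodes the SmN protein known from brain, had signals of 4.56 in DGKzeta, 3.51 in EGFP and 4.33 in untreated cells, Lsm14a had 7.10, 16.2 and 2.76 in the same order of groups, and Prpf40b had 48.2, 79.5 and 62.0. Signals of different probe sets depend on their probes, so levels were not compared between genes.

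The arrays as a whole set the frame for these values. The transfected gene Dgkz was higher in DGKzeta cells by both of its probe sets, 12.8-fold and 18.0-fold over EGFP. Of 10 myoblast markers 7 were measured on all 3 arrays, Myf5 and Des among them, while Myod1, Cav3 and Pax7 were under the floor. No marker of endothelial cells, leukocytes or epithelium reached the floor on any array, and of 7 markers of differentiated muscle 6 stayed under it on all 3. The summed signal of the 10 myoblast markers was 5510.5 in DGKzeta, 5121 in EGFP and 4959 in untreated cells, but single markers differed in direction. Myf5 had 2036 in DGKzeta, 1227 in EGFP and 1058 in untreated cells, and Chrna1, Mef2a and Vcam1 were also higher in DGKzeta than in EGFP cells. Des had 479, 932 and 795 in the same order of groups, and Itga7 and Cdh15 were also lower in DGKzeta than in EGFP cells. Among markers of other tissues, Nefl, Tubb3 and Pparg were measured on all 3 arrays. The median signal of all probe sets was 92.5 on the DGKzeta array, 119 on the EGFP array and 111 on the untreated array. The ratio of the 3′ to the 5′ control probe set of beta-actin, which reads the shortening of labelled product, was 2.55 in DGKzeta, 1.43 in EGFP and 1.27 in untreated cells, and that of Gapdh was 0.931, 0.902 and 0.841. The part of these differences in the ratios below was not tested. In RNA from whole cultures, fewer cells with a transcript and less of it per cell cannot be told apart.

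The members shown here lay at or nearest to the 2-fold mark against EGFP and had a promoter window in the RefSeq table of GRCm38.p6, and the 250 bases before each start are shown to place them in the genome and to let their sequences be compared. Snrpd3 and Lsm14b had the higher signals in DGKzeta cells, at chr10:75517792-75518041 (plus strand) and chr2:180024737-180024986 (plus strand). Hnrnpl and Snrnp70 had the lower ones, at chr7:28810640-28810889 (plus strand) and chr7:45395743-45395992 (minus strand). Capitals mark matches on either strand to the GC box with the letters GGGCGG, the CCAAT box, the TATA box with the letters TATAAA, the ETS core with the letters CCGGAAG and the NRF1 core with the letters GCATGCGC.
Snrpd3: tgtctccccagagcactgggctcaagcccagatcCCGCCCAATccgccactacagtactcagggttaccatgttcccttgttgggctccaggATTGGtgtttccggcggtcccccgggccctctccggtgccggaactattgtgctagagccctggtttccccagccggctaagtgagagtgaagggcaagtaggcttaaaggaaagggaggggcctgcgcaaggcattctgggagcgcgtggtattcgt
Lsm14b: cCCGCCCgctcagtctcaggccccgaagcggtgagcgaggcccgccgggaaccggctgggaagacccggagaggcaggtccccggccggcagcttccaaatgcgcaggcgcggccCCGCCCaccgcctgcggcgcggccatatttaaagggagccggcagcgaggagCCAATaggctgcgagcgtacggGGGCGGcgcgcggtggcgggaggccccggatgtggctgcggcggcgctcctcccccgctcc
Hnrnpl: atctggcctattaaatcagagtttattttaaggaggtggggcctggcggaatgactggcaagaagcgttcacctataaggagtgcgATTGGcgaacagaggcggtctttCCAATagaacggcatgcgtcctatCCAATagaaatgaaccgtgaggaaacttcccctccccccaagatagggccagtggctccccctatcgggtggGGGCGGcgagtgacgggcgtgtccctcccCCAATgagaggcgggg
Snrnp70: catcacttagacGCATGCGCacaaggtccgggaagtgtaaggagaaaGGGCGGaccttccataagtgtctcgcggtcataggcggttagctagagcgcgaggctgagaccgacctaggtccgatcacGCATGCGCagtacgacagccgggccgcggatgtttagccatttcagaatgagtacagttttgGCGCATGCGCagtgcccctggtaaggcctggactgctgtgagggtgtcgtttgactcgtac

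Every one of these windows held a GC box, 1 in Snrpd3, 3 in Lsm14b, 1 in Hnrnpl and 1 in Snrnp70. Hnrnpl held 4 CCAAT matches and Snrpd3 held 2, of which 1 overlapped the GC box by 2 bases. Snrnp70 held 4 matches to GCATGCGC, 2 of them overlapping in 1 run. None of the 4 windows held TATAAA or CCGGAAG. Of the members, 60 had a window in the table. A GC box stood in 66.7% of these 60 windows, against 32.9% of the 27025 windows of every gene in the table. CCAAT stood in 46.7% against 34.5%, CCGGAAG in 28.3% against 7.05%, GCATGCGC in 6.67% against 2.32% and TATAAA in 8.33% against 13.0%. The 27025 windows include genes that were not on the array or not measured in these cells, whereas most members were measured. Windows of measured genes alone were not counted, so these shares do not set members apart from other measured genes. A match is a run of letters, not a bound site.

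Against EGFP, splicing factors as a group stayed close to a ratio of 1 in DGKzeta cells, and 3 genes were higher and 1 was lower by at least 2-fold. The higher ones were Snrnp40, Snrpd3 and Lsm14b, and the lower one was Hnrnpl. Among all 6926 genes measured on either array, 0.347% were higher by this rule and 2.84% were lower. The member shares were 4.55% higher and 1.52% lower, over 66 genes, so that each share rests on a handful of genes. Their median log2 ratio was 0.06, with a middle range of -0.08 to 0.25 between quartiles, beside a median of -0.02 over all genes. Of the 66 members 41 were above 0 and 25 below. Of all genes measured, 47.4% were above 0 as deposited. That share depended on scaling, at 56.1% after quantile normalization and 77.5% when medians of every named probe set were equal. Pairs of probe sets of 2251 genes gave an SD of 0.40 for the log2 ratio of 1 probe set, and 49 of the 66 ratios lay within that SD of 0. The share of all genes within it was not counted, here or in the comparisons below, so such counts do not set members apart. This SD describes probes that read the same RNA extract and says nothing of the spread between cultures.

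Against untreated cells, again 3 genes were higher and 1 was lower: Snrnp40, Snrpd3 and Hnrnph2 were the higher ones and Snrnp70 the lower one. Over all 6866 genes measured on either array, 1.34% were higher and 2.8% lower by the same rule. The median log2 ratio of the members was 0.03, that of all genes -0.02. The SD of 1 probe set was 0.50 here, and 56 of the 66 members lay within it. Both comparisons use the same DGKzeta array, so genes found in each are not found independently.

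EGFP against untreated cells, the comparison that shows transfection without the kinase, had 1 member higher by at least 2-fold, Hnrnph2, and none lower. The shares over all 6932 genes were 0.361% higher and 0.303% lower. The member median was -0.04 and that of all genes 0.02. The SD of 1 probe set was 0.27, and 47 members lay within it. The EGFP array is shared with the first comparison, as the denominator.

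**Figure D1:**
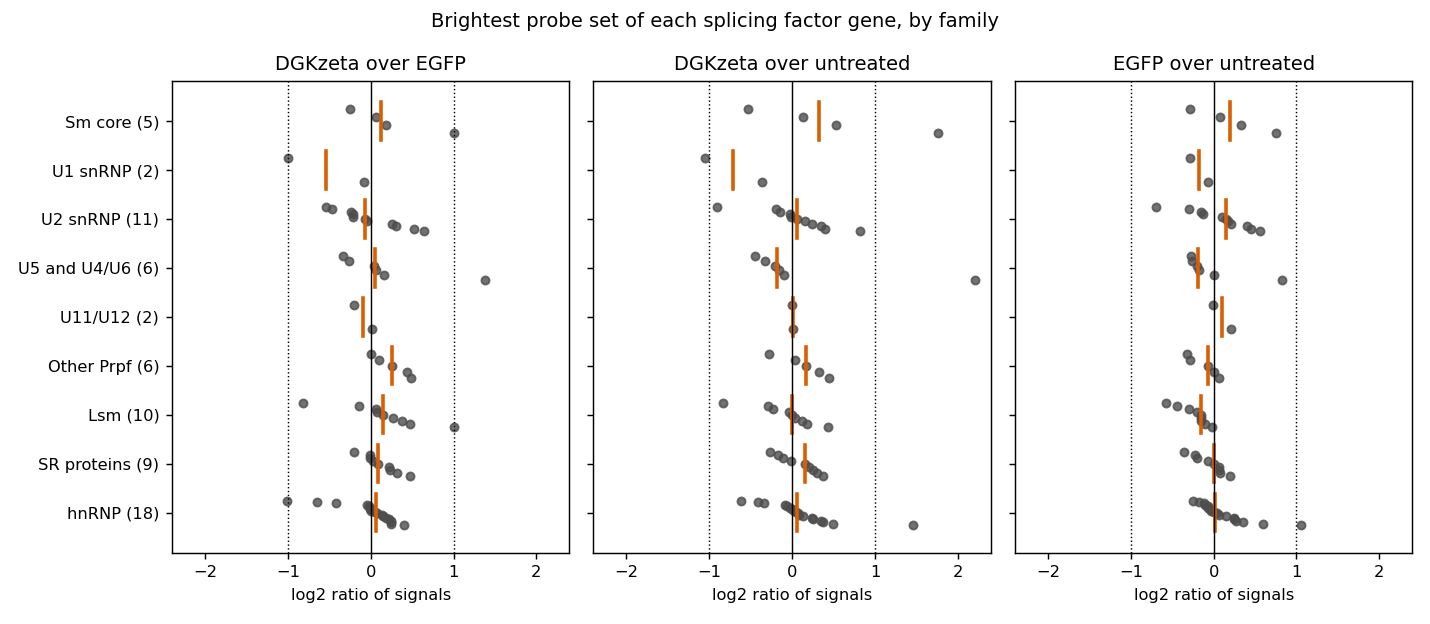
Log2 ratios of signals (horizontal axis) for the brightest probe set of each measured splicing factor gene, by family (vertical axis, with the number of genes in the family), in the 3 comparisons. Points are genes, orange bars are family medians and dotted lines mark 2-fold. Most of the 66 genes lie between the dotted lines in each panel. For DGKzeta over EGFP, Snrnp40, Lsm14b and Snrpd3 lie at or beyond the right line, and Hnrnpl and Snrnp70 at the left one. For DGKzeta over untreated, Snrnp40, Snrpd3 and Hnrnph2 lie beyond the right line and Snrnp70 beyond the left one.

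The Sm core, the ring of proteins common to U1, U2, U4 and U5, held 1 member that stood apart from both controls. Snrpd3, the SmD3 protein (probe set 1422884_at), had a signal of 3561 in DGKzeta cells, 1769 in EGFP cells and 1050.4 in untreated cells. The DGKzeta array was the highest and the untreated array the lowest, with ratios of 2.01-fold over EGFP and 3.39-fold over untreated. The other 2 Snrpd3 probe sets were under the floor on all 3 arrays, between 27.7 and 85.7, so this ratio rests on 1 probe set. EGFP over untreated stood at 0.75 on the log2 scale for the same probe set.

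Other Sm proteins were closer to even. Snrpe, the SmE protein, had 10501 in DGKzeta, 9200.2 in EGFP and 7297 in untreated cells, a log2 ratio of 0.19 over EGFP and 0.53 over untreated. Snrpb, the SmB protein, ran in the opposite order, with 3903 in DGKzeta, 4649 in EGFP and 5644 in untreated cells and log2 ratios of -0.25 and -0.53. Snrpg, the SmG protein, was nearly flat by both of its probe sets, at 0.06 and 0.15 over EGFP. As deposited, 3 of 4 measured ring genes were above 0 over EGFP and Snrpb was below. Snrpb was at -0.36 after quantile normalization and at 0.11 when medians of every named probe set were equal.

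Snrnp70, which encodes the U1-70K protein that binds a stem loop of U1 RNA, had the lowest DGKzeta ratio of the snRNP genes over each control, by brightest probe sets. Its 1 probe set (1451104_a_at) had a signal of 436 in DGKzeta cells, 869 in EGFP cells and 908 in untreated cells. The controls lay close together, at a log2 ratio of -0.06 between EGFP and untreated, and the DGKzeta array below both. It was 2.08-fold below untreated, and 1.99-fold below EGFP, just outside the 2-fold rule. Snrpc, the U1-C protein, which steadies pairing with the 5′ splice site, had 3265 in DGKzeta, 3466 in EGFP and 4214 in untreated cells, log2 ratios of -0.09 and -0.37.

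U2 proteins and the SF3A and SF3B complexes gave 11 genes with a median log2 ratio of -0.07 over EGFP and 0.05 over untreated, and none reached 2-fold by its brightest probe set. Snrpa1, a protein of the U2 particle itself, was the highest of them, with 2998 in DGKzeta, 1912 in EGFP and 1693 in untreated cells. Its log2 ratios over EGFP were 0.65, 0.12 and 0.17 by its 3 probe sets, a mean of 0.31 ± 0.29 (SD, n = 3 probe sets). Sf3b4, a subunit next to the branch site, was the lowest, with 1714 in DGKzeta, 2501 in EGFP and 1897 in untreated cells, where the EGFP array stood above both others. By its brightest probe set it was at -0.54 over EGFP on the log2 scale, and by the other one at 0.01.

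Sf3b5, a small SF3B subunit, was low in both transfected cultures, with 825 in DGKzeta, 954 in EGFP and 1544 in untreated cells. At -0.90 over untreated it lay just outside the 2-fold rule, and EGFP over untreated was -0.70. Sf3b6, the p14 protein that contacts the branch adenosine, was above EGFP by each of its 3 measured probe sets, at 0.53, 0.22 and 0.44, a mean of 0.39 ± 0.16 (SD, n = 3 probe sets). Sf3a1 and Sf3a3 were below EGFP by each of their 2 probe sets, at -0.47 and -0.09 for Sf3a1 and -0.07 and -0.68 for Sf3a3. After quantile normalization both probe sets of Sf3a3 were below 0, at -0.64 and -0.085, while those of Sf3a1 lay on either side of 0, at -0.45 and 0.16. Equal medians, which raise all ratios over EGFP alike, put 1 probe set of each gene above 0. The brightest probe set of Sf3a2 gave -0.21 over EGFP, and the other was under the floor in DGKzeta cells at 99.6, beside 265 in EGFP and 139 in untreated cells.

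Sf3b1, the largest SF3B subunit, gave the widest disagreement of all members in both comparisons of DGKzeta cells. Its brightest probe set (1449138_at) had 3599 in DGKzeta, 2921 in EGFP and 3241 in untreated cells, log2 ratios of 0.30 and 0.15. The next (1418562_at) had 433 in DGKzeta, 1206 in EGFP and 2758 in untreated cells, log2 ratios of -1.48 and -2.67. On that probe set the DGKzeta array was the lowest and the untreated array the highest, and it was 6.37-fold below untreated, while the brightest one differed little. The last was near the floor, at 121 in DGKzeta, 136 in EGFP and 99.1 in untreated cells. The positions of these probes along the transcript were not used here.

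Snrnp40, a WD repeat protein of the U5 particle, gave the highest ratio of any member, by 1 of its 2 probe sets. Probe set 1452713_a_at had 1585 in DGKzeta, 610.4 in EGFP and 345 in untreated cells, which is 2.60-fold over EGFP and 4.60-fold over untreated. Probe set 1428264_at had 698 in DGKzeta, 649 in EGFP and 727 in untreated cells, log2 ratios of 0.10 and -0.06. The arrays are thus ordered on the first and nearly level on the second. The geometric means of both probe sets were almost tied, at 693 and 690.5, so which one represents the gene turned on the DGKzeta array itself: by the controls alone the level one was brighter.

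The other members grouped here with U5 and U4/U6 lay within 1 SD of a probe set over EGFP by their brightest probe sets. Prpf8, the large U5 protein at the catalytic centre, had 2702 in DGKzeta, 3246 in EGFP and 3674 in untreated cells, log2 ratios of -0.26 and -0.44. Prpf6, which bridges U5 and U4/U6, had 973 in DGKzeta, 1231 in EGFP and 1226 in untreated cells, but its other measured probe set gave 0.38 over EGFP in place of -0.34. By their brightest probe sets, Prpf3 and Prpf31, both of U4/U6, and Snrnp27 were between 0.05 and 0.17 over EGFP. Over untreated the same probe sets were between -0.21 and -0.10. The other Snrnp27 probe set went the opposite way, at -0.07 over EGFP and 0.16 over untreated. The other Prpf31 probe set was under the floor in DGKzeta cells at 106, beside 164 in EGFP and 166 in untreated cells. In the minor spliceosome, which removes a rare class of introns, Snrnp25 was level at 808, 798 and 802 in DGKzeta, EGFP and untreated cells. Snrnp48 had 469 in DGKzeta, 540.0 in EGFP and 468 in untreated cells by its brightest probe set, a log2 ratio of -0.20 over EGFP, and gave 0.41 and 0.35 by its other measured ones.

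**Figure D2:**
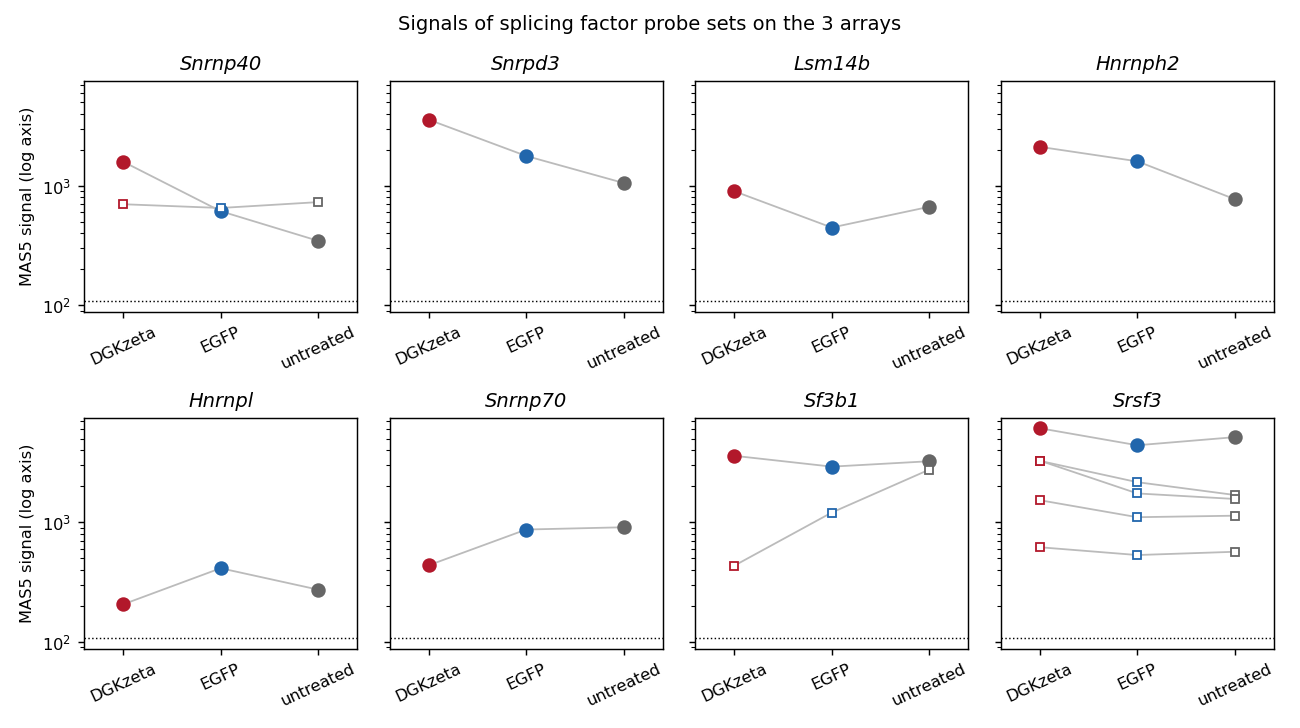
MAS5 signal on a log axis (vertical) on the DGKzeta, EGFP and untreated arrays (horizontal) for 8 splicing factor genes. Filled circles are the brightest probe set of a gene, open squares its other probe sets measured on all 3 arrays, grey lines join 1 probe set, and the dotted line is the floor of 107. Snrnp40 and Sf3b1 each show 1 probe set that is ordered across the arrays and 1 that is nearly level. The 5 Srsf3 probe sets shown, of 6 on the array, are all higher in DGKzeta than in EGFP cells.

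Prpf proteins not grouped here with U5 and U4/U6 included factors of spliceosome activation. Prpf38a, needed for that step, had 1511 in DGKzeta, 1083 in EGFP and 1351 in untreated cells, a log2 ratio of 0.48 over EGFP, where the EGFP array was the lowest. Prpf4b, a kinase that acts on spliceosome proteins, had 1266 in DGKzeta, 932 in EGFP and 931 in untreated cells, a log2 ratio of 0.44 over each control. Its 4 probe sets measured on all 3 arrays ran between -0.50 and 0.46 over EGFP, with a mean of 0.10 ± 0.45 (SD). Prpf19, the ubiquitin ligase of the complex that bears its name, had 1619 in DGKzeta, 1609.7 in EGFP and 1959 in untreated cells. It was level over EGFP by its 2 brighter probe sets, at 0.01 and 0.03, and at -0.88 by the third. Prpf38b was at 0.26 and Prpf39 at 0.09 over EGFP.

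Lsm proteins were measured for 9 of 10 genes, each by 1 probe set. Lsm14b, an RNA-binding protein of cytoplasmic granules, had 897 in DGKzeta, 445 in EGFP and 664 in untreated cells. The DGKzeta array was 2.01-fold over EGFP but 0.43 on the log2 scale over untreated, because the EGFP array was the lowest of the 3. Lsm2, a subunit of both the nuclear U6 ring and the cytoplasmic decay ring, had 528 in DGKzeta, 932 in EGFP and 943 in untreated cells. Here both controls were alike and the DGKzeta array lower, at -0.82 and -0.84. Other subunits did not share this: Lsm3 was at 0.08 over EGFP, Lsm4 at 0.15, Lsm7 at -0.14 and Lsm8, which marks the nuclear ring, at 0.07, while Lsm1, which marks the cytoplasmic ring, was at 0.38. Lsm10, of the U7 snRNP that processes histone mRNA, was at 0.27 and Lsm12 at 0.47.

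All 9 measured Lsm genes were lower in EGFP than in untreated cells, by log2 ratios from -0.58 to -0.02. Their median was -0.15 as deposited, and all 9 were below 0 after quantile normalization too. Of all genes measured, 46.3% were below 0 in this comparison as deposited and 48.5% after quantile normalization. Equal medians lower every ratio here and could not have turned the 9. Most of these ratios lay within the SD of 0.27 of a single probe set. Over EGFP, 7 of the 9 were above 0 in DGKzeta cells, in a comparison that shares the EGFP array, beside 47.4% of all genes. Over untreated 4 were above 0 and 5 below, beside 48.3% of all genes above 0.

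SR proteins, which bind exon sequences and mostly favour the splice sites beside them, gave small ratios that several probe sets shared. Srsf3, the smallest of the family, had 6123 in DGKzeta, 4410 in EGFP and 5156 in untreated cells by its brightest probe set, a log2 ratio of 0.47 over EGFP. Its 5 probe sets measured on all 3 arrays were all higher in DGKzeta than in EGFP cells, from 0.22 to 0.91, with a mean of 0.53 ± 0.25 (SD, n = 5 probe sets of 1 RNA extract). Against untreated cells the same 5 ran from 0.13 to 1.07. EGFP over untreated averaged 0.03 ± 0.23, with 2 above 0 and 3 below.

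Srsf10, known for repressing splicing when it loses its phosphates, showed the same direction with more spread. Its brightest probe set had 1227 in DGKzeta, 1202 in EGFP and 1378 in untreated cells and was level over EGFP at 0.03. The next had 1317, 873 and 660.2 in the same order, a log2 ratio of 0.59 over EGFP and 1.00 over untreated, and the mean of all 4 was 0.48 ± 0.34 over EGFP (SD, n = 4 probe sets). Srsf6 was at 0.22, 0.34 and 0.36 over EGFP and Srsf11 at 0.31 and 0.52. Srsf3, Srsf6, Srsf10 and Srsf11 had all these probe sets above 0 over EGFP after quantile normalization as well. Equal medians raise every ratio over EGFP alike and so could not have turned them.

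The rest of the family differed from these 4 genes. Srsf2, a widely used exon activator, had 7164 in DGKzeta, 7207 in EGFP and 7208 in untreated cells, level on all arrays, and its other measured probe sets were at -0.26 and -0.04 over EGFP. Srsf1, the founding member, had 6 measured probe sets that straddled 0 over EGFP, from -0.43 to 0.49, with a mean of 0.01 ± 0.31 (SD). Srsf9 had the lowest ratio, with 1079 in DGKzeta, 1239 in EGFP and 1296 in untreated cells, -0.20 over EGFP. Srsf4 was level over EGFP, at a log2 ratio that rounds to 0, and Srsf5 was at 0.24. No SR gene reached 2-fold by its brightest probe set in any comparison.

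The hnRNP family, proteins that coat pre-mRNA and often oppose the use of nearby splice sites, was the largest, with 18 genes and 50 probe sets. Its median log2 ratio was 0.06 over EGFP, 0.06 over untreated and 0.02 for EGFP over untreated. Hnrnph2, which binds runs of G (probe set 1415963_at), had 2109 in DGKzeta, 1596 in EGFP and 769 in untreated cells. Both transfected cultures were above the untreated one, 2.74-fold in DGKzeta and 2.08-fold in EGFP cells, while DGKzeta over EGFP was 0.40 on the log2 scale, close to the SD of 1 probe set. The related Hnrnph1 was at 0.22 and 0.75 over EGFP by its 2 probe sets, and Hnrnph3, with 243 in DGKzeta, 381 in EGFP and 371 in untreated cells, went the other way at -0.65.

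Hnrnpa2b1, a protein that also takes part in RNA transport, was higher in both transfected cultures by every probe set. Its 4 probe sets had a mean log2 ratio of 0.66 ± 0.33 for DGKzeta over untreated and 0.62 ± 0.29 for EGFP over untreated (SD, n = 4 probe sets). DGKzeta over EGFP was 0.04 ± 0.05, the closest accord of probe sets among genes with 4 or more. The brightest had 7281 in DGKzeta, 7324 in EGFP and 5732 in untreated cells. For this gene and for Hnrnph2 the untreated array stood apart, and the transfected arrays lay near each other.

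Hnrnpl, which binds CA repeats, was the member lower than EGFP by 2-fold. Its 1 probe set (1424101_at) had 206 in DGKzeta, 412 in EGFP and 273 in untreated cells, 2.01-fold below EGFP. The EGFP array was the highest of the 3, and over untreated the log2 ratio was -0.41. Its paralogue Hnrnpll was level by its brightest probe set, at 4081, 4098 and 4096 in DGKzeta, EGFP and untreated cells, and at 0.52 over EGFP by the other. Hnrnpul1 was at -0.41 over EGFP.

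Several hnRNP genes with many probe sets showed how far probe sets of 1 gene can differ. Hnrnpab had 5 measured probe sets; the brightest was at 0.08 over EGFP, with 10766 in DGKzeta, 10198 in EGFP and 10384 in untreated cells, whereas 1426114_at had 1069, 2616 and 1839 in the same order, -1.29 on the log2 scale. Hnrnpr ran from -0.35 to 0.77. All 6 probe sets of Hnrnpdl were above EGFP, from 0.05 to 0.60, and both of Hnrnpc were nearly level at 0.05 and 0.04. Hnrnpa1, Hnrnpd, Hnrnpf, Hnrnpk, Hnrnpm, Hnrnpu and Hnrnpul2 lay between -0.04 and 0.25 over EGFP by their brightest probe sets. Among these, Hnrnpu gave -0.93 over untreated by 1 probe set, with 1673 in DGKzeta, 1809 in EGFP and 3185 in untreated cells, beside 0.07 by its brightest. Hnrnpa1 was at 0.19 over EGFP and -0.06 over untreated by its brightest probe set. Its other measured one, nearly as bright, gave -0.37 and -0.72. Hnrnpk was at -0.31 over EGFP by its dimmest probe set.

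**Figure D3:**
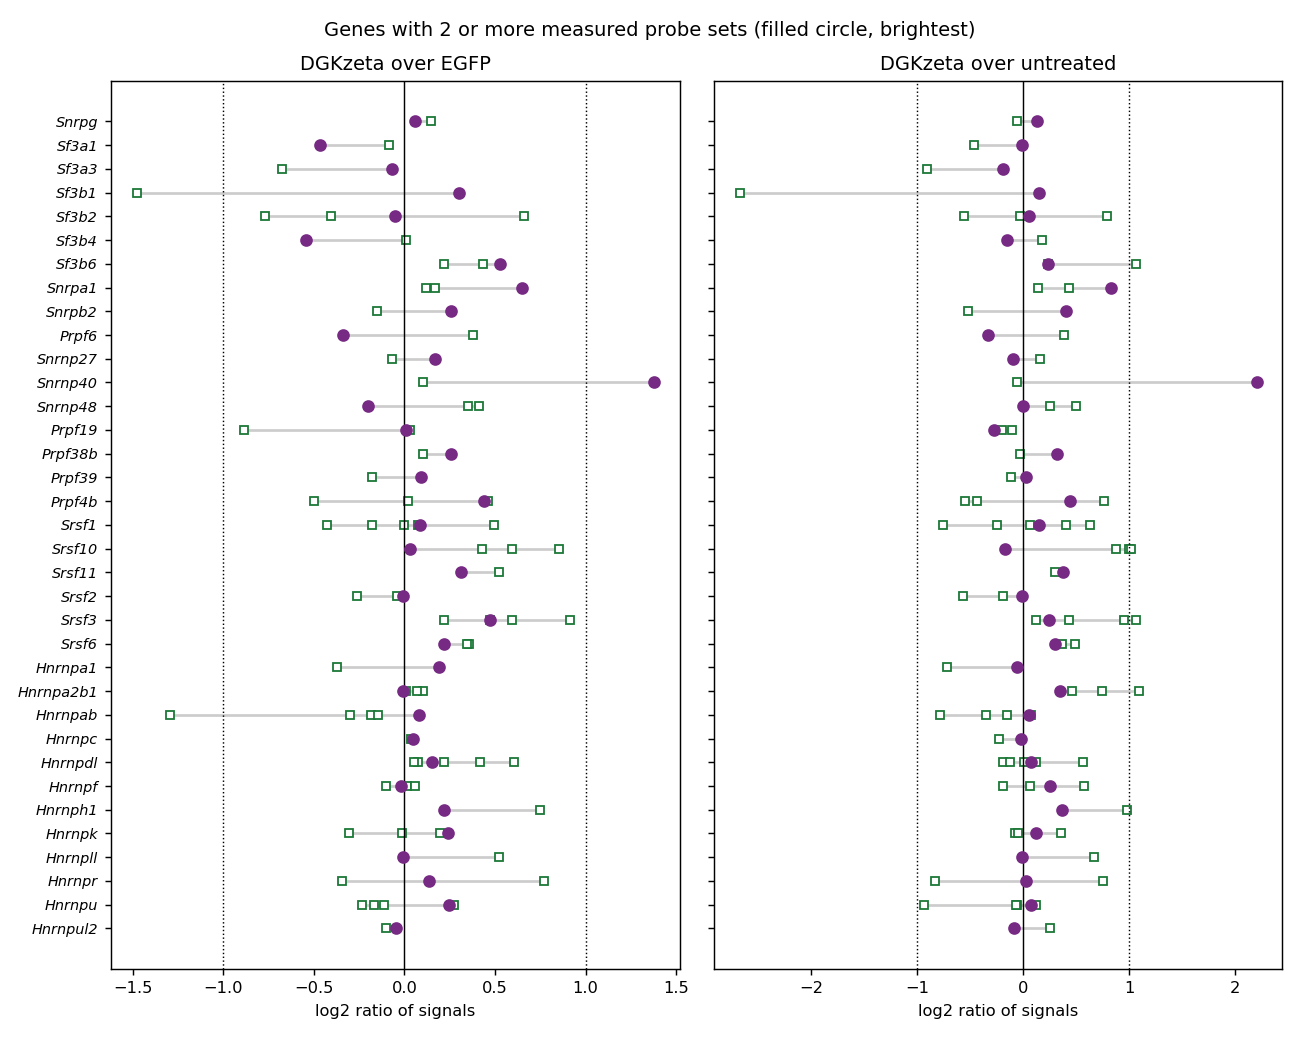
Log2 ratios of signals (horizontal axis) for every probe set measured on all 3 arrays, for the 35 splicing factor genes with at least 2 such probe sets (vertical axis, ordered by family). Purple circles are brightest probe sets, open green squares the others, grey bars join a gene's probe sets and dotted lines mark 2-fold. Sf3b1 and Snrnp40 span the widest ranges over untreated, and Srsf3, Srsf6, Srsf10 and Srsf11 lie to the right of 0 over EGFP.

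In all, 35 members had at least 2 probe sets measured on all 3 arrays. In 12 of them every such probe set was above 0 over EGFP (34.3%, beside 23.9% of the 2251 genes with such pairs), and in 4 every one was below 0 (11.4%, beside 25.9%). Over untreated, all probe sets were above 0 in 8 members (22.9%, beside 22.6% of all such genes) and below 0 in 6 (17.1%, beside 24.6%). After quantile normalization, 13 members had every probe set above 0 over EGFP, beside 30.7% of all such genes. Of the 12 genes above 0 as deposited, 11 were so after quantile normalization too: Snrnp40, Snrpa1, Snrpg, Sf3b6, Prpf38b, Srsf3, Srsf6, Srsf10, Srsf11, Hnrnpdl and Hnrnph1. The probe sets of a gene differed by at least 1 on the log2 scale in 5 members over EGFP (Sf3b1, Sf3b2, Snrnp40, Hnrnpab and Hnrnpr) and in 8 over untreated. That is 14.3% of 35 and 22.9%, beside 13.0% and 20.2% over all genes. No member was called in 1 direction by 2 of its probe sets in either comparison of DGKzeta cells.

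The kind of probe set moved with some of these ratios. The suffix _x_at marks sets with probes that can also bind other transcripts, and 15 members had both such a set and another measured on all 3 arrays. In 12 of the 15 the _x_at mean was above that of the other sets over EGFP, with a median difference of 0.47 on the log2 scale, and in 11 of 15 it was so over untreated, at 0.57. The same held over all genes, in 76.9% of 489 genes over EGFP and 75.5% over untreated, with median differences of 0.27 and 0.33, but in 54.6% for EGFP over untreated. Among members the gap was 1.15 for Hnrnpr and 0.96 for Sf3b2 over untreated, and 0.63 for Srsf3, whose other 4 measured probe sets averaged 0.44 over EGFP. The part of cross-binding in the ratios was not tested.

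**Figure D4:**
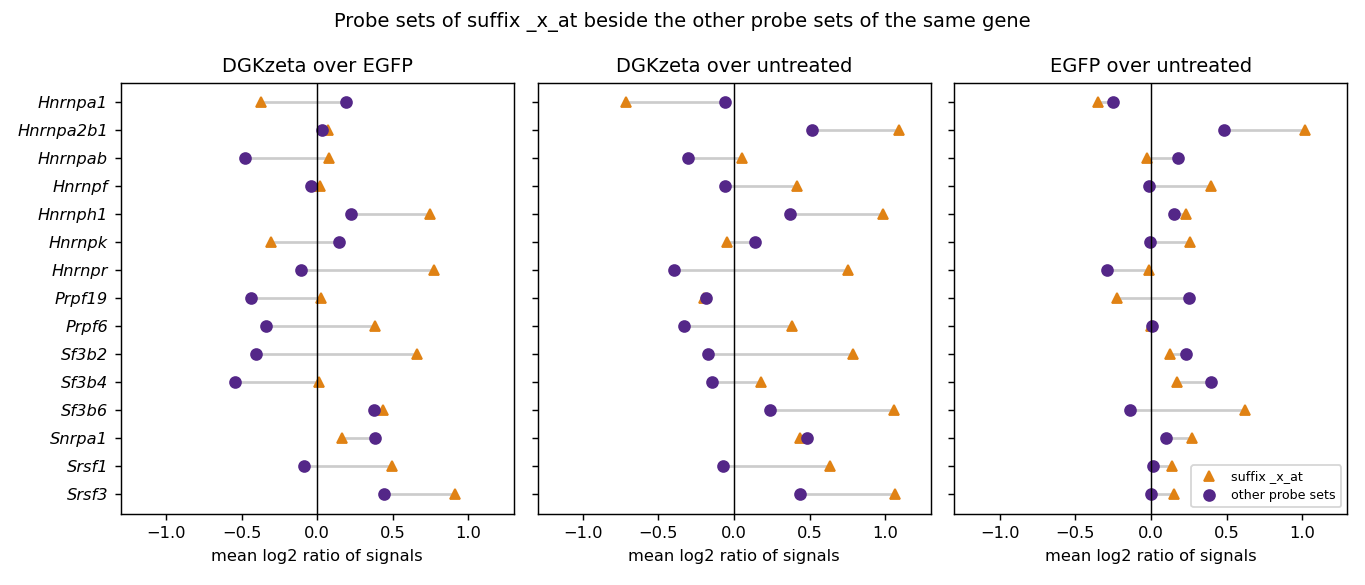
Mean log2 ratio of signals (horizontal axis) of _x_at probe sets (orange triangles) and of the other probe sets (purple circles) of the same gene (vertical axis), for the 15 splicing factor genes that have both, in the 3 comparisons. The triangle lies to the right of the circle in 12 of 15 genes over EGFP and in 11 of 15 in the DGKzeta over untreated panel.

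Other genes of the splicing pathway, taken from a list of 117 symbols that the naming rule does not reach, were on the array for 98 and measured for 97. By brightest probe sets, 2 of them were lower over EGFP by 2-fold or more and 0 higher, and the median log2 ratio was 0.01. Over untreated 2 were higher and 4 lower, with a median of 0.01. Among all genes, 2.84% were lower and 0.347% higher over EGFP, and 1.34% higher and 2.8% lower over untreated, so that these counts of 97 lie near the shares of all genes. EGFP over untreated gave none in either direction. Raly, an hnRNP-like protein, had 185 in DGKzeta, 466 in EGFP and 804 in untreated cells, log2 ratios of -1.33 and -2.12 by its 1 probe set. Rbfox2, a regulator of alternative exons in muscle, had 203 in DGKzeta, 419 in EGFP and 711 in untreated cells, but its next probe set gave -0.19 over each control. On both brightest probe sets the EGFP array lay between the others. Dimmer probe sets of some further listed genes were also at least 2-fold lower over EGFP. For Sfpq, Rbm25 and Snw1 these gave -2.47, -1.95 and -1.53, beside 0.31, 0.39 and 0.51 by their brightest.

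By brightest probe sets, the remaining called genes of that list reached 2-fold against untreated cells but not against EGFP. U2af1, the small U2AF subunit that reads the 3′ splice site, had 1632 in DGKzeta, 2812 in EGFP and 3505 in untreated cells, a log2 ratio of -0.79 over EGFP and -1.10 over untreated. Prmt5, the methyltransferase that prepares Sm proteins for assembly, had 997, 1825 and 2400.3 in the same order, at -0.87 and -1.27. On both the DGKzeta array was the lowest. Slu7, a factor of the second splicing step, was at 1.10 and Celf2, a regulator of muscle and brain exons, at 1.20, while their next probe sets gave 0.38 and 0.34. By brightest probe sets, the kinases of SR proteins, Srpk1 to Srpk3 and Clk1 to Clk4, had a median of 0.15 over EGFP and 0.19 over untreated. Of these 7, 6 were measured and none was beyond 2-fold. Srpk2 was at 0.55 over untreated by its brightest probe set. Its next one gave -1.35 and was under the floor in DGKzeta cells, at 54.2.

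The level of the whole group depended on how the arrays were scaled. The member median over EGFP was 0.06 as deposited, 0.07 after quantile normalization, 0.17 when medians over measured probe sets were made equal and 0.43 when those of every named probe set were. All genes moved with it, at -0.02, 0.06, 0.08 and 0.33, so that the members lay 0.09, 0.01, 0.09 and 0.09 above all genes. Equal medians shift members and all genes alike, apart from values at the floor, so only quantile normalization could alter this gap. Over untreated the gap was 0.04 as deposited and -0.02 after quantile normalization. Snrnp40 and Snrpd3 were at least 2-fold higher over untreated as deposited and after quantile normalization. Equal medians raise every ratio over untreated alike and so could not have removed these 2 calls. By its other probe set Snrnp40 was at -0.06 over untreated as deposited. Over EGFP, the higher calls of Snrpd3 and Lsm14b were close to the mark, at 2.01-fold each. The higher members there were 3 as deposited and 2 after quantile normalization. The calls of Hnrnpl and Snrnp70 as 2-fold lower were also close to the mark and held only as deposited. Hnrnpl, 2.01-fold below EGFP as deposited, had a log2 ratio of -0.79 after quantile normalization, -0.90 with medians of measured probe sets made equal and -0.64 with those of every named one. Snrnp70 over untreated was at -1.06 as deposited, and at -0.96, -0.96 and -0.79 in the same order. Both stayed lower in DGKzeta cells in each scaling.

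**Figure D5:**
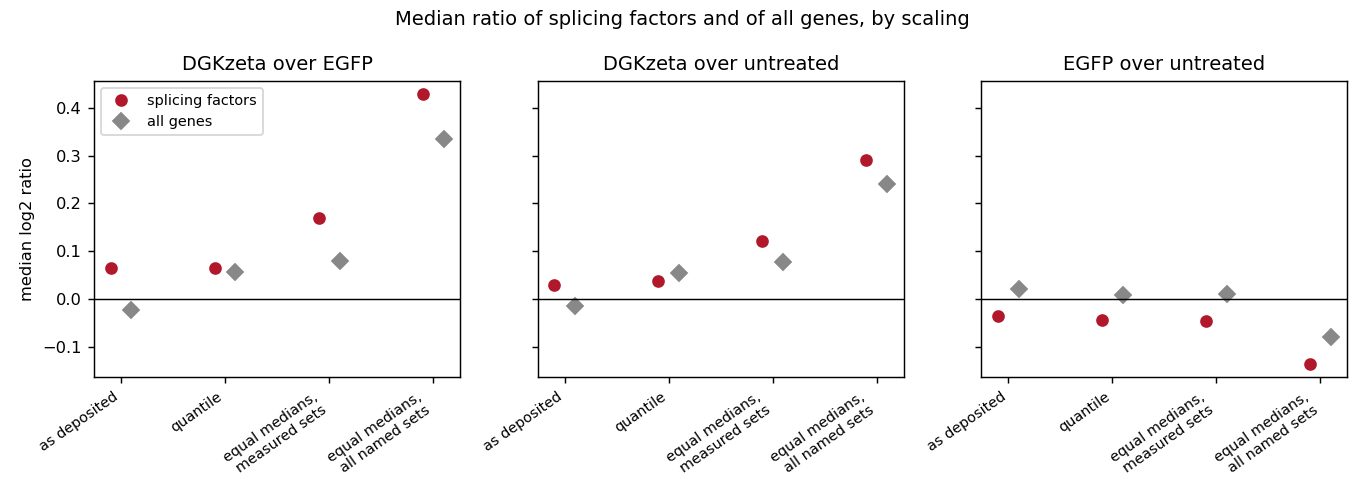
Median log2 ratio (vertical axis) of the 66 measured splicing factor genes (red circles) and of all measured genes (grey diamonds) with 4 scalings of the arrays (horizontal axis), in the 3 comparisons. Both medians move together, and in the DGKzeta over EGFP panel they are 0.06 and -0.02 as deposited, against 0.43 and 0.33 when medians of every named probe set are equal.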

How the data were processed

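Per the labels' protocols, RNA from 3 cultures of C2C12 cells, purified with Trizol and RNeasy, was labelled with biotin in 1 cycle for Affymetrix arrays, of which each culture had 1. The authors deposited 1 linear intensity per probe set, and the submitters' processing notes name MAS5. Version and scaling target: not given in the sources used here. Between percentiles 2 and 98 every array had the same mean, 499.95, so a common scaling was already in the deposited intensities, which were used unchanged. Of 22690 probe sets 64 were controls, 20380 had 1 symbol in the platform annotation and 691 had several, which were not named. All 158 member probe sets were found by gene ID in a RefSeq table of GRCm38.p6, and 0 symbols differed. Values under the 50th percentile of all values (107) were raised to it before log2. Promoters came from RefSeq, GRCm38.p6, the first window listed per gene.

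The members, the families and the lists were chosen with earlier results of these data known. Every member may be named. Values on all 3 arrays are given for members 2-fold apart, for the highest and lowest of each family over EGFP, and for genes whose 2 brightest probe sets differ by 1 or more on the log2 scale. Further values were named after they were seen. Sizes alone were compared, and the number of arrays limits the precision. The counting was tested on simulated data. Alternatives were 3 scalings, floors at the 25th and 75th percentile (15.2 and 562), no floor, a pseudocount of 3.17, the mean over probe sets, the brightest by both controls, the second brightest, no _x_at or _s_at sets, and 1.5-fold and 3-fold rules. Software was pandas 2.3.3 and numpy 2.4.6 under Python 3.11.15, with figures by matplotlib 3.10.9.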

Additional observations from a re-analysis of the deposited data

How the results depend on the processing

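With 1 array per group no replicate could be left out, and no paired analysis was possible because each group has 1 sample. All alternatives were planned. Under them 53 counts stayed within 1.5 times the reported count and 25 did not, and 31 medians moved by at most 0.1 and 5 by more. Over EGFP, the 3 higher members became 1 with the mean over probe sets, 0 by second brightest probe sets (37 measured) and 0 at 3-fold. They became 2 after quantile normalization, with the floor at the 75th percentile and by sets brightest on both controls, beside 0.75%, 0.18% and 0.26% of all genes. They became 4 when medians of every named probe set were equal and at 1.5-fold, beside 2.37% and 3.51% of all genes. The 1 lower member became 0 with each of the 3 other scalings, the floor at the 75th percentile, the pseudocount and at 3-fold. The count became 2 by second brightest probe sets, where 6.46% of all genes were lower by the same rule. It also became 2 without _x_at and _s_at sets, beside 3.40% of all genes, and 4 at 1.5-fold, beside 11.6%. Over untreated, the 3 higher members became 0 by second brightest probe sets. The 1 lower member there became 0 with each of the 3 scalings, the floor at the 75th percentile and the 3-fold rule. At 1.5-fold the lower count became 4, where 9.93% of all genes were lower. For EGFP over untreated, the 1 higher member became 0 when medians of every named probe set were equal. The count was also 0 by second brightest probe sets and at 3-fold, and 4 at 1.5-fold, where 4.13% of all genes were higher. The 0 lower ones became 1 by second brightest probe sets and at 1.5-fold, beside 1.49% and 1.515% of all genes.

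Medians moved over EGFP to 0.43 when medians of every named probe set were equal and to 0.17 when those of measured ones were, over untreated to 0.29 with every named probe set and to 0.14 by second brightest probe sets, and for EGFP over untreated to -0.14 with every named probe set. Snrnp40 over untreated had a log2 ratio of 2.20 as reported and of -0.059 by its second brightest probe set and by the set that is brightest on both controls. Snrpd3 over untreated was at 0.59 on that scale with the mean over its probe sets, 2 of which lie at the floor. The cause of the other moves was not tested. Among all genes, the split over EGFP was 0.347% higher and 2.84% lower as deposited, and 2.37% and 0.736% when medians of every named probe set were equal. Genes near the floor, where signal is close to background, give ratios that are too small.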
